A study of Mus musculus with 6 samples.

Results

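Transcripts of the mitochondrial genome were followed in MA-10 and STARKO1 cells. They were taken as every gene of the deposited table whose symbol starts with mt-, which gave 17 of 14774 genes. The mouse mitochondrial genome carries 37 annotated genes, namely 13 mRNAs, 2 rRNAs and 22 tRNAs. All 13 mRNAs and both rRNAs have a row, and so do 2 of the tRNAs (mt-Tg and mt-Tv), while the other 20 tRNAs were not analysed here. MA-10 is a wild type mouse tumor Leydig cell line, and STARKO1 is a STAR KO clone of it, grown from 1 sorted cell after CRISPR/Cas9 with gRNAs against exon 2 of Star. Both lines were untreated, and each gave 3 libraries of total RNA made with a stranded low-input kit. Values of a cell line are given below in the order of its replicates 1, 2 and 3. Because STARKO1 is 1 clone, the loss of STAR and other features of that clone cannot be told apart. The labels do not say that the 3 libraries of a line came from separate cultures, so p-values measure only the spread between these libraries, which may be technical.

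Mitochondrial DNA is a small circle that is read from a promoter region on each strand into long precursors. The tRNAs lie between the other genes, and their removal by nuclear-encoded endonucleases frees the mRNAs and rRNAs. All its mRNAs encode subunits of the respiratory chain or of ATP synthase, which are completed by subunits encoded in the nucleus. In Leydig cells, mitochondria also host the first step of steroid synthesis, since STAR moves cholesterol to the inner membrane, where CYP11A1 cleaves its side chain.

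A pair of tRNAs and 3 pairs of a mitochondrial gene with a nuclear copy are shown, because the size and the copies of these genes bear on how their reads were counted. The sequences are those of the GENCODE M21 transcripts on GRCm38, read 5′ to 3′ on the gene's own strand. Capitals mark the anticodon in the tRNAs and the bases that differ within a pair in the other windows. The tRNAs are at chrM:1025-1093 (mt-Tv, for valine) and chrM:9391-9458 (mt-Tg, for glycine).
mt-Tv: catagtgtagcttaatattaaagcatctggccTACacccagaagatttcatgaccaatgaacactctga
mt-Tg: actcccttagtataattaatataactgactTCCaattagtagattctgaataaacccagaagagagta
The first 60 bases of mt-Atp6 (chrM:7927-7986) are the same as those of the chromosome 1 copy Gm10925 (chr1:24614592-24614651, minus strand).
mt-Atp6: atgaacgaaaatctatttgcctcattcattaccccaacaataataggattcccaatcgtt
Gm10925: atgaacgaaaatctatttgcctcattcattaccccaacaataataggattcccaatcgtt
In mt-Co1 (chrM:6390-6449) the window holds the 1 base that differs from the copy Gm29216 (chr1:24616129-24616188, minus strand) over 483 aligned bases.
mt-Co1: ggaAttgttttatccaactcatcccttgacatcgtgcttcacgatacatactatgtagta
Gm29216: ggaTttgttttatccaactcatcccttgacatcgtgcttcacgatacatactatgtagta
The start of mt-Nd6 (chrM:14011-14070, minus strand) differs at 2 bases from the copy Gm11408 (chr4:80003855-80003914, minus strand), and 33 of 519 aligned bases differ in all.
mt-Nd6: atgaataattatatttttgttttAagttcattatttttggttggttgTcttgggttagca
Gm11408: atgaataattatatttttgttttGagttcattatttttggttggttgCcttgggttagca

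The counts of 4 mRNAs were divided with an identical nuclear copy. The deposited values are estimated counts, since 54.2% of the genes hold values that are not whole in at least 1 library, and 8 of the 17 mitochondrial genes do. mt-Atp6, a subunit of the proton channel of ATP synthase, received between 48.0% and 50.1% of the counts that it and Gm10925 held together. mt-Co2, mt-Co3 and mt-Nd4l also have copies that match base for base over 681, 783 and 294 bases. mt-Co2 received between 44.0% and 45.2% of its pair's counts, mt-Co3 between 47.6% and 48.4%, and mt-Nd4l between 47.4% and 59.6%. The levels of these 4 mRNAs are therefore uncertain by about the share given to the copy, and in each of these pairs the share overlapped between the lines. Where the copy differs at 1 base, nearly all counts were given to the mitochondrial gene, to mt-Nd3 at least 99.75% in every library and to mt-Co1 at least 99.2% in 5 libraries. The copy of mt-Co1 covers only 483 of its 1545 bases. MA-10 replicate 2 was the exception, where mt-Co1 received 90.04% and Gm29216 held 4098 counts, against 8.15 to 263 in the other libraries. mt-Nd4 matches the copy Gm28439 over 876 bases, and mt-Nd6 is close to Gm11408, but neither copy has a row in the table.

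**Figure D1:**
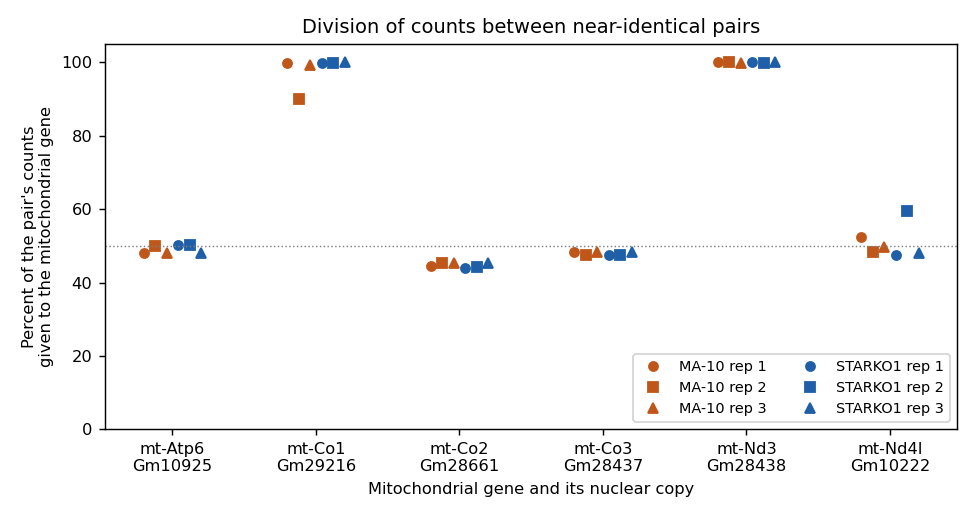
Percent of the estimated counts of each near-identical pair that was given to the mitochondrial gene (y axis) for 6 pairs (x axis), with 1 point per library, MA-10 and STARKO1 in different colors and a dotted line at 50. The identical pairs lie near the dotted line in both cell lines, and mt-Co1 and mt-Nd3 lie near the top except for mt-Co1 in MA-10 replicate 2 (90.04%).

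The total count lay between 14114351 and 19530062 per library. Star, the targeted gene, had 60.9, 109 and 61.4 CPM in the MA-10 libraries and 2.06, 2.71 and 2.02 in the STARKO1 libraries (log2 fold change -5.09, SE 0.33, edgeR adjusted p = 0.00121). CPM, the unit of level used here, is a count relative to the library size after scaling by edgeR's TMM method. All 8 Leydig cell markers were in the table, with a summed level of 1558 to 2092 CPM in MA-10 cells and 1401 to 1448 in STARKO1 cells. None of 4 Sertoli cell markers was in the table, and of 4 germ cell and 4 macrophage markers those in the table (1 and 2) summed to less than 10 CPM in every library. Of 4 endothelial markers Pecam1 and Cdh5 were in the table, with 26.4 to 41.5 CPM in MA-10 cells and 118 to 124 CPM in STARKO1 cells, while Kdr and Tek were not. Of 4 fibroblast markers only Pdgfra was, with 2.78 to 6.69 CPM against at most 0.118 CPM. The part of these marker differences in the results below was not tested. MA-10 replicate 1 stood apart from replicates 2 and 3 in many gene groups. The 7SL RNA of the signal recognition particle held 1.81%, 14.4% and 6.63% of all counts in MA-10 cells against a range of 1.82% to 2.37% in STARKO1 cells. Cytosolic ribosomal protein mRNAs held 4.63%, 8.67% and 7.82% against a range of 4.25% to 4.43%. The mitochondrial mRNAs moved with both, and the part of this library difference in the results was not tested beyond leaving out each library.

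The 13 mitochondrial mRNAs together took a smaller share of the counts in each STARKO1 library than in any MA-10 library. The share was 0.679%, 1.25% and 1.16% in MA-10 cells against 0.645%, 0.609% and 0.588% in STARKO1 cells. MA-10 replicate 1 lay closer to the STARKO1 libraries than to its own line. The means were 1.03% ± 0.309 and 0.614% ± 0.0288 (SD, n = 3), and the exact two-sided permutation test gave p = 0.1, the smallest value that 3 against 3 libraries allow. The counting error was far smaller, since the 95% Wilson interval of each of these shares spanned at most 0.00560 percentage points to either side. That interval covers counting error only. The share of the 2 rRNAs was 6.74%, 6.24% and 7.60% in MA-10 cells and 6.79%, 6.27% and 5.94% in STARKO1 cells (exact permutation p = 0.5), so they overlapped. Adding rRNAs, tRNAs and mRNAs gave 7.42%, 7.49% and 8.76% against 7.43%, 6.88% and 6.52% (exact permutation p = 0.2). The rRNAs made up between 83.2% and 91.3% of all mitochondrial counts in a library. In these bulk libraries, fewer cells with a transcript and less RNA per cell cannot be told apart, and the number of mitochondrial genomes was not measured.

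Gene by gene, the comparison asked which mitochondrial transcripts differ between the lines when every gene is scaled alike. Of the 17, 16 passed edgeR's filter on low counts (mt-Tv did not), and 1 was differentially expressed, mt-Nd6, which was lower in STARKO1 cells. Over all genes tested, 9.04% were differentially expressed and 4.74% were lower, by edgeR's quasi-likelihood test at a Benjamini-Hochberg adjusted p under 0.05. A negative log2 fold change was estimated for 15 of the 16, beside 52.9% of all genes, and 12 of the 16 were lower at an unadjusted p under 0.05, beside 22.7%. Their median log2 fold change was -1.17, against -0.05 over all genes. All 3 STARKO1 libraries lay below all 3 MA-10 libraries for 9 of the 16, beside 21.0% of all genes. With libraries scaled by their total count alone, the median of all genes moved up by 0.43, and the median of the 16 was -0.62 against 0.38 over all genes. The 13 mRNAs and 2 rRNAs had negative log2 fold changes in each of 15 settings of scaling, filter, tool and left-out library. With MA-10 replicate 1 as the only MA-10 library, a value with no test, 5 mRNAs were higher in STARKO1 cells, namely mt-Cytb (0.54), mt-Nd3 (0.48), mt-Atp8 (0.34), mt-Atp6 (0.30) and mt-Nd1 (0.06). The 15 settings came close to no difference for mt-Cytb (-0.0049 to -0.87) and mt-Rnr2 (-0.0071 to -0.57).

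The calls depended on which libraries were kept. Without it, 15 of 17 mitochondrial genes were called by edgeR, all lower in STARKO1 cells, but of all genes 31.7% were then lower and 34.0% higher, 65.7% in either direction. Without any one of the other 5 libraries, edgeR called 0 mitochondrial genes, with 6 or 7 at an unadjusted p under 0.05. Over all genes, these fits called 89 to 511 of the 12187 to 12235 tested, with 2626 to 3486 at that unadjusted level. DESeq2 called 11 of 17 with all libraries, all lower, beside 15.4% of all genes lower and 24.9% in either direction. With the replicate number as a block, edgeR called 0 of 16, beside 1.96% of all genes. At an unadjusted p under 0.05 there were then 7, beside 3692 of 11939 over all genes.

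**Figure D2:**
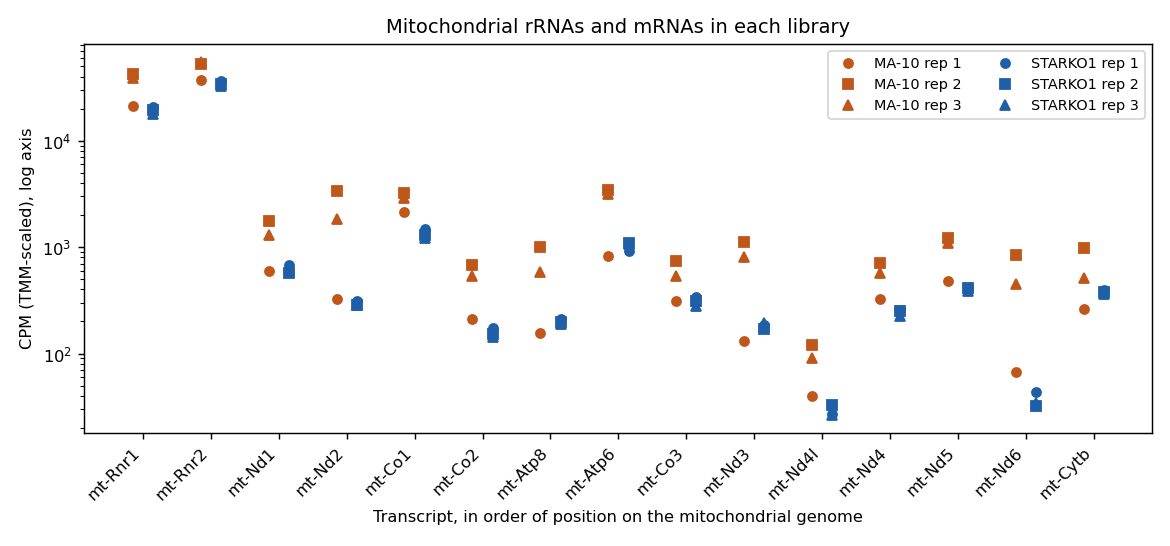
Level of the 2 rRNAs and 13 mRNAs in each library, as CPM on a log axis (y axis), with the transcripts in genome order (x axis) and 1 point per library. MA-10 replicates 2 and 3 lie above the STARKO1 libraries for every transcript, and MA-10 replicate 1 lies among or near the STARKO1 libraries for most of them.

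Complex I, the NADH dehydrogenase, takes 7 of its subunits from mitochondrial mRNAs, and it held both the called gene and the widest differences. mt-Nd6 encodes a membrane subunit of complex I and is the 1 mRNA of the light strand, opposite to the 12 others. It had 67.4, 850 and 447 CPM in MA-10 cells against 43.7, 31.9 and 34.6 CPM in STARKO1 cells. The STARKO1 libraries were close to each other and below all MA-10 libraries, of which replicate 1 was lowest by far. The level was 12.4-fold lower in STARKO1 cells (log2 fold change -3.63, SE 0.83, edgeR adjusted p = 0.0446). MA-10 replicate 1 alone differed from the STARKO1 libraries by -0.88 on the log2 scale, and without that replicate the log2 fold change was -4.04 (edgeR adjusted p = 1.60e-05). Without MA-10 replicate 2 it was -2.81 (edgeR adjusted p = 0.0912). Without 1 of the remaining 4 libraries it lay between -3.67 and -3.53, with an edgeR adjusted p between 0.144 and 0.193. mt-Nd6 overlaps the end of mt-Nd5 on the other strand by 14 bases (chrM:13552-13565). Whether the counting used strand is not given in the sources used here, and without it reads of mt-Nd6 and of heavy-strand RNA over the same bases cannot be told apart.

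mt-Nd2, another membrane subunit, had 326, 3389 and 1829 CPM in MA-10 cells and 309, 285 and 284 CPM in STARKO1 cells. It came after mt-Nd6 in size of difference (log2 fold change -2.66, SE 0.75, edgeR adjusted p = 0.0650). MA-10 replicate 1 differed from the STARKO1 libraries by only -0.16 on the log2 scale, so the estimate rested on replicates 2 and 3. mt-Nd3 had 131, 1125 and 810 CPM in MA-10 cells and 187, 169 and 194 CPM in STARKO1 cells (log2 fold change -1.91, edgeR adjusted p = 0.0966). Here MA-10 replicate 1 was below all STARKO1 libraries and the lines overlapped.

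The other 4 complex I mRNAs had log2 fold changes between -1.54 and -0.96. mt-Nd4l, whose reading frame runs into that of mt-Nd4 by 7 bases, had 39.7, 119 and 91.1 CPM in MA-10 cells and 26.8, 32.6 and 26.5 CPM in STARKO1 cells (-1.54, edgeR adjusted p = 0.0538). mt-Nd4 had 327, 712 and 576 CPM against 254, 248 and 224 CPM (-1.15, adjusted p = 0.0600). Both had lower values in all STARKO1 libraries than in any MA-10 library. mt-Nd5 had 477, 1209 and 1092 CPM in MA-10 cells and 415, 414 and 385 CPM in STARKO1 cells (-1.19, edgeR adjusted p = 0.0732), again without overlap. mt-Nd1, which lies next to the rRNAs, had 600, 1754 and 1297 CPM against 674, 577 and 631 CPM (-0.96, adjusted p = 0.126). Its lines overlapped at MA-10 replicate 1.

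mt-Cytb, the cytochrome b of complex III and the 1 mitochondrial subunit of that complex, showed the smallest log2 fold change of the mRNAs. It had 261, 981 and 507 CPM in MA-10 cells and 397, 379 and 366 CPM in STARKO1 cells (log2 fold change -0.62, SE 0.45, edgeR adjusted p = 0.334). MA-10 replicate 1 was the lowest library of all 6.

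Complex IV, cytochrome c oxidase, has its catalytic core encoded by mt-Co1, mt-Co2 and mt-Co3. mt-Co1 had 2143, 3214 and 2923 CPM in MA-10 cells and 1470, 1303 and 1207 CPM in STARKO1 cells. It was 2.08-fold lower (log2 fold change -1.06, SE 0.26, edgeR adjusted p = 0.0538), and it had the smallest spread of the mRNAs among the MA-10 libraries relative to its level, with replicate 1 also above every STARKO1 library. mt-Co2, which carries the copper site that takes electrons from cytochrome c, had 213, 674 and 541 CPM against 174, 152 and 143 CPM (-1.61, adjusted p = 0.0572). mt-Co3 had 311, 738 and 536 CPM in MA-10 cells and 336, 310 and 281 CPM in STARKO1 cells (-0.77, edgeR adjusted p = 0.133). The lines were apart for mt-Co1 and mt-Co2 and overlapped for mt-Co3.

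ATP synthase takes a pair of membrane subunits from overlapping reading frames, which share the 43 bases chrM:7927-7969. mt-Atp6 had 829, 3437 and 3165 CPM in MA-10 cells and 925, 1085 and 1058 CPM in STARKO1 cells (log2 fold change -1.28, edgeR adjusted p = 0.123). mt-Atp8 had 157, 999 and 589 CPM against 209, 199 and 188 CPM (-1.55, adjusted p = 0.110). In both, MA-10 replicate 1 was below every STARKO1 library.

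The rRNAs build the mitochondrial ribosome. The kit used here has a step that cleaves ribosomal cDNA with probes, so their counts are what was left after it, and its efficiency per library was not measured. mt-Rnr1, the rRNA of the small subunit, had 21017, 42404 and 39199 CPM in MA-10 cells and 20669, 19483 and 17743 CPM in STARKO1 cells (log2 fold change -0.83, edgeR adjusted p = 0.193). mt-Rnr2, the rRNA of the large subunit, had 37370, 53008 and 55271 CPM against 36360, 33896 and 32914 CPM (-0.50, adjusted p = 0.382). MA-10 replicate 1 was above the STARKO1 libraries by a small margin in both. The 2 tRNAs were near the limit of the data. mt-Tg had 2, 16 and 6 counts in MA-10 cells and 23, 12 and 10 counts in STARKO1 cells (log2 fold change 0.25, edgeR adjusted p = 0.822). mt-Tv had 8, 3 and 3 counts against 14, 7 and 13 counts and was not tested. These tRNAs are 68 and 69 bases long, and with counts this low their values in the lines overlapped.

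A second comparison asked whether the make-up of the mitochondrial RNA differs, whatever its total. Each library was scaled by the summed counts of the 13 mRNAs in place of TMM. This scale holds the mRNAs around 0 as a set, so their values are relative to each other. None of the 16 was then called by edgeR (smallest adjusted p = 0.171), beside 0.377% of all genes. At an unadjusted p under 0.05 there were 4, beside 23.6% of all genes. Of these, mt-Nd6 had a log2 fold change of -2.04 (SE 0.51, edgeR adjusted p = 0.171) and mt-Nd2 one of -1.09 (adjusted p = 0.207). mt-Cytb had 0.75 (edgeR adjusted p = 0.207) and mt-Tg 1.67 (adjusted p = 0.207). The other 12 lay between -0.37 and 0.61. With the sum of all mitochondrial counts as the scale, most of which are rRNA, edgeR again called 0, and the values were -2.75 for mt-Nd6, -1.79 for mt-Nd2, 0.17 for mt-Cytb and 0.995 for mt-Tg. Scaled by the 13 mRNAs and without MA-10 replicate 1, 11 of 17 were called (8 higher, 3 lower), beside 88.5% of all genes. The tRNAs were among the higher ones, and the 3 lower ones were mt-Nd6, mt-Nd2 and mt-Nd3.

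**Figure D3:**
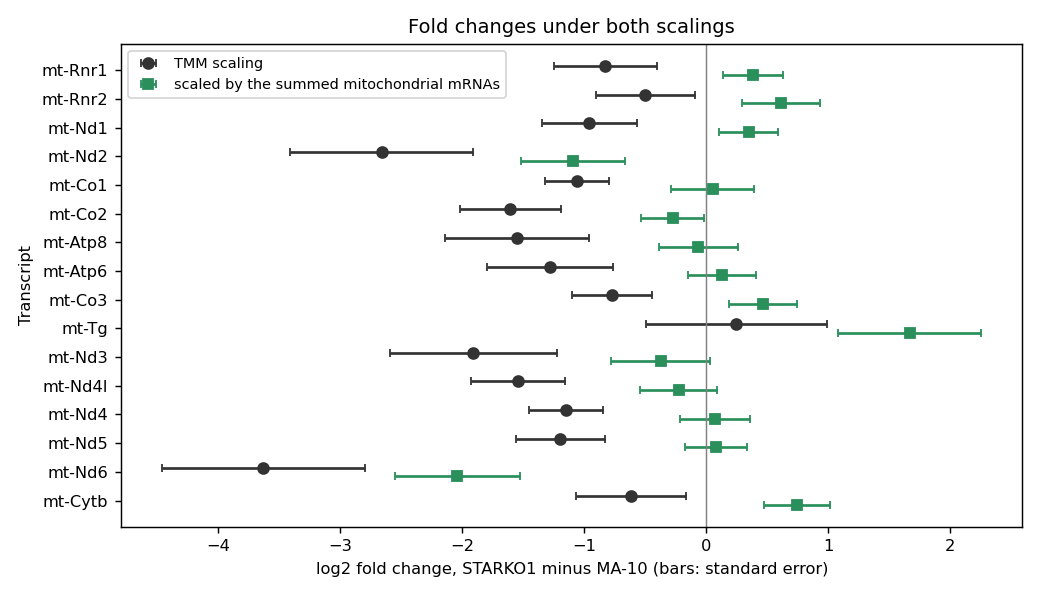
Log2 fold change, STARKO1 minus MA-10 (x axis), of each mitochondrial transcript tested (y axis), with standard errors as bars, under TMM scaling (circles) and under scaling by the summed mitochondrial mRNAs (squares). The second scaling holds the mRNAs around 0 as a set. Under it, mt-Nd6 (-2.04) and mt-Nd2 (-1.09) are lowest among the mRNAs and mt-Cytb (0.75) is highest.

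The percent that each mRNA took of the counts of all 13 divides by the same sum, so it restates this comparison library by library. mt-Nd6 took 1.15%, 4.43% and 3.10% in MA-10 cells against 0.807%, 0.615% and 0.689% in STARKO1 cells. mt-Nd2 took 5.54%, 17.7% and 12.7% against 5.71%, 5.50% and 5.65%, so that MA-10 replicate 1 lay among the STARKO1 libraries. mt-Co1 was the largest share in MA-10 replicate 1 and the STARKO1 libraries, with 36.4%, 16.7% and 20.3% against 27.1%, 25.1% and 24.0%. In these 3 mRNAs the range over the MA-10 replicates was wider than the difference between the means of the lines. All these shares leave out counts given to nuclear copies. In STARKO1 cells mt-Atp6 held 21499.1, 18398.5 and 18834.7 counts and its identical copy Gm10925 21421.9, 18333.5 and 20288.9. Those of mt-Co1 were 34167.0, 22104.6 and 21478.5. Counted with its copy, mt-Atp6 was thus above mt-Co1 in the STARKO1 libraries, but not in MA-10 replicate 1. mt-Cytb took 4.45%, 5.11% and 3.52% in MA-10 cells and 7.33%, 7.30% and 7.29% in STARKO1 cells. This share was above every MA-10 library in every STARKO1 library, and the STARKO1 libraries differed by less than 0.05 percentage points. mt-Nd1 and mt-Co3 also took larger shares in all STARKO1 libraries than in any MA-10 library, mt-Co2 and mt-Nd6 took smaller ones, and the other 8 overlapped. By CPM, which is not a share of these mRNAs, the lines were apart for 42.5% of all genes.

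**Figure D4:**
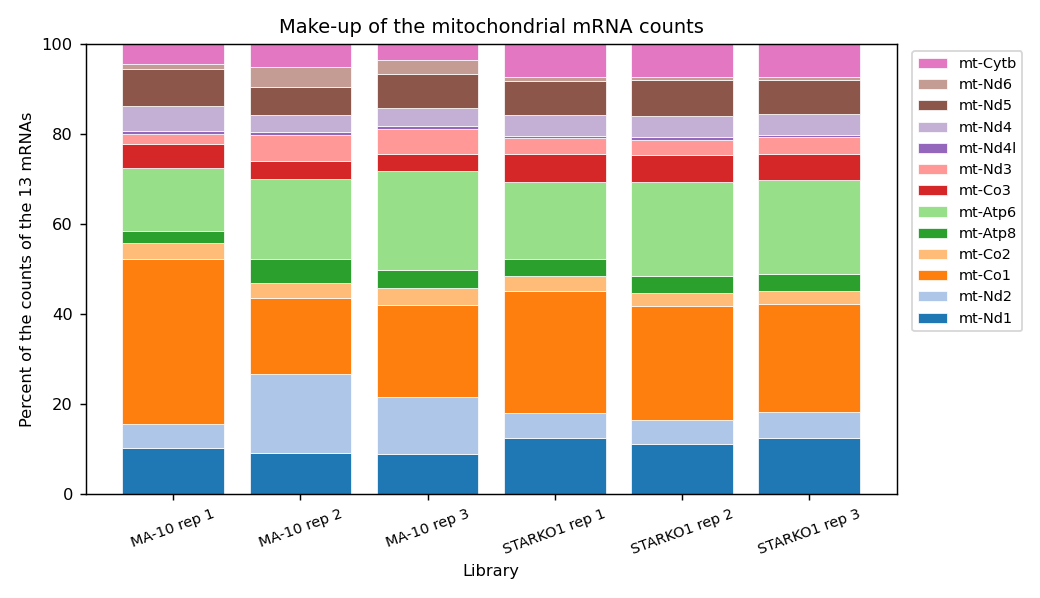
Percent of the summed counts of the 13 mitochondrial mRNAs taken by each of them (y axis) in each library (x axis), stacked to 100. The STARKO1 bars are alike, and the MA-10 bars differ, with a larger mt-Co1 part in replicate 1 (36.4%) and larger mt-Nd2 parts in replicates 2 and 3 (17.7% and 12.7%).

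The mitochondrial mRNAs differed widely in level. Levels are given here as CPM per kilobase of gene, which takes the gene's length into account. In STARKO1 cells the order was mt-Atp6 (1501), mt-Atp8 (974), mt-Co1 (859), mt-Nd1 (655), mt-Nd3 (528), mt-Co3 (394), mt-Cytb (333), mt-Nd2 (282), mt-Co2 (229), mt-Nd5 (222), mt-Nd4 (176), mt-Nd4l (96.3) and mt-Nd6 (70.8). Of the neighbours in this order, only mt-Atp8 with mt-Co1 and mt-Co2 with mt-Nd5 overlapped over the 3 libraries. Within the STARKO1 libraries, mt-Atp8 was above mt-Co1 in all 3, and mt-Co2 above mt-Nd5 in 1. With the counts of the near-identical copies added, mt-Atp6 reached 3039, mt-Co3 825, mt-Co2 514 and mt-Nd4l 186 CPM per kilobase. In MA-10 cells, by the means of the 3 libraries, mt-Atp6 was again highest (3637) and mt-Nd4l lowest (281). mt-Nd6 was in place 7 of 13 with 876. In MA-10 replicate 1 alone, mt-Co1 (1387) was above mt-Atp6 (1217), and mt-Nd6 (130) was lowest, just below mt-Nd4l (134). Every neighbour in the MA-10 order overlapped over the 3 libraries. Within libraries, mt-Atp6 was above mt-Atp8 in all 3, for example, and mt-Cytb above mt-Nd5 in 1. With the copies added in MA-10 cells, mt-Atp6 (7428) remained highest, mt-Nd4l was at 568, mt-Nd4 (390) became lowest and mt-Nd6 was in place 9. Per base, mt-Nd6 was at 0.497, 2.47 and 1.44 times the level of the facing mt-Nd5 in MA-10 cells and at 0.371, 0.271 and 0.316 times in STARKO1 cells. mt-Rnr2 was at 1.07, 0.755 and 0.851 times the level of mt-Rnr1 in MA-10 cells and at 1.06, 1.05 and 1.12 times in STARKO1 cells, with MA-10 replicate 1 among the STARKO1 libraries.

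Nuclear genes act on the mitochondrial genome, and 2 lists of them were read from the same edgeR fit. None of 23 genes for transcription and replication of mitochondrial DNA was called, beside 9.04% of all genes. At an unadjusted p under 0.05, 4 were higher and 5 lower, beside 1786 of 11939 higher and 22.7% lower over all genes. Beside 24.9% of all genes, DESeq2 called 5 of these 23. Their median log2 fold change was 0.13. Tfam, which packages mitochondrial DNA and opens its promoters, had 57.3, 65.7 and 62.8 CPM in MA-10 cells and 75.5, 75.6 and 75.5 CPM in STARKO1 cells (log2 fold change 0.29, edgeR adjusted p = 0.177). Polrmt, the mitochondrial RNA polymerase, had a log2 fold change of 0.59 (edgeR adjusted p = 0.0975), and its promoter partner Tfb2m one of 0.48 (adjusted p = 0.0699). The elongation factor Tefm had 0.41 (edgeR adjusted p = 0.134), the helicase Twnk 0.43 (adjusted p = 0.130) and the DNA polymerase Polg 0.07 (adjusted p = 0.879). Of the 23 genes, 8 had all STARKO1 libraries above all MA-10 libraries and 4 had them below, beside 21.5% and 21.0% of all genes, and 11 overlapped. Tfam, Polrmt, Tfb2m, Tefm and Twnk were among the 8.

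Of 42 genes for the processing, modification and decay of mitochondrial RNA, 4 rose and 2 fell in STARKO1 cells, beside 4.3% higher and 4.74% lower of all genes, and the median log2 fold change was 0.20. Elac2, the RNase Z that cuts the 3′ end of tRNAs out of the precursor, rose from 27.1, 19.9 and 17.4 CPM to 44.9, 50.05 and 52.5 CPM (log2 fold change 1.19, SE 0.21, edgeR adjusted p = 0.0227). Ptcd3, a protein of the small mitochondrial ribosomal subunit, rose from 19.99, 23.8 and 18.5 CPM to 37.5, 37.8 and 39.6 CPM (0.88, adjusted p = 0.0254). Gtpbp3, which modifies the wobble base of mitochondrial tRNAs, rose by 0.75 (edgeR adjusted p = 0.0333), and Trub2, a pseudouridine synthase, by 0.82 (adjusted p = 0.0406). Lactb2, a mitochondrial endoribonuclease, fell by 0.86 (edgeR adjusted p = 0.0422), and Trit1, which isopentenylates tRNAs in the cytosol and mitochondria, fell by 0.60 (adjusted p = 0.0465). In each of these 6 genes the lines did not overlap, MA-10 replicate 1 included, beside 42.5% of all genes. The 6 were picked by the test on these same libraries, so this is no separate support. None of the 6 was called with a replicate block in the edgeR fit, beside 1.96% of all genes. Of the 65 genes of both lists, 18 were then at an unadjusted p under 0.05, beside 3692 of 11939 over all genes. Leaving out MA-10 replicate 1 gave 47 calls in both lists together (28 higher, 19 lower), beside 65.7% of all genes (34.0% and 31.7%). Leaving out any other library gave 0 or 1, beside 89 to 511 calls over all genes. Lrpprc and Slirp bind and stabilize the mitochondrial mRNAs as a complex. Slirp had 15.5, 176 and 77.5 CPM in MA-10 cells and 17.5, 16.4 and 16.5 CPM in STARKO1 cells (log2 fold change -2.42, edgeR adjusted p = 0.0768), with MA-10 replicate 1 below the STARKO1 libraries. Lrpprc had -0.19 (edgeR adjusted p = 0.546) and the decay enzyme Pnpt1 -0.21 (adjusted p = 0.586), and both turned positive with scaling by total count alone (0.30 and 0.32).

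The nuclear-encoded partners of the mitochondrial subunits had lower estimates as well. Of 78 nuclear genes for subunits of the oxidative phosphorylation complexes, 2 fell and 0 rose by edgeR. There were 52 lower and 1 higher at an unadjusted p under 0.05, beside 22.7% lower and 1786 of 11939 higher over all genes. DESeq2 called 45, of which 44 were lower, beside 24.9% and 15.4% of all genes. Without MA-10 replicate 1 there were 67 calls, beside 65.7% of all genes. Without any other library there were 0 or 1, beside 89 to 511 calls over all genes. A negative log2 fold change was found for 69 of the 78, beside 52.9% of all genes, with a median of -1.36. Cox7a2l, which joins complexes III and IV, fell from 113, 129 and 108 CPM to 72.3, 69.6 and 60.7 CPM (edgeR adjusted p = 0.0339). Cox6a2, the muscle form of a complex IV subunit, had 15, 38 and 19 counts in MA-10 cells and 1, 1 and 3 counts in STARKO1 cells (edgeR adjusted p = 0.0226). Its STARKO1 values were at or below the floor of 3 counts, so the size of its difference is uncertain. By complex, the median log2 fold change of mitochondrial and nuclear subunits was -1.54 and -1.39 for complex I, -0.62 and -1.17 for complex III, -1.06 and -1.68 for complex IV, and -1.41 and -0.61 for ATP synthase. Summed over the 78 genes, the level was 10953, 45044 and 30814 CPM in MA-10 cells and 11404, 11500 and 11406 CPM in STARKO1 cells. For the 13 mitochondrial mRNAs the sum was 5882, 19201 and 14403 CPM, against 5422, 5185 and 5023 CPM. In both sums MA-10 replicates 2 and 3 were far above the rest, and MA-10 replicate 1 was just above the STARKO1 libraries for the mitochondrial mRNAs and just below them for the nuclear genes.

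Protein genes of the mitochondrial and the cytosolic ribosome also had their highest summed levels in MA-10 replicates 2 and 3. Of 78 mitochondrial ribosomal protein genes, 1 rose and 4 fell by edgeR, beside 4.3% higher and 4.74% lower of all genes. The median log2 fold change of the 78 was -0.93. Summed levels were 3367, 10781 and 7490 CPM in MA-10 cells and 3447, 3490 and 3601 CPM in STARKO1 cells. Of 85 cytosolic ribosomal protein genes tested, edgeR called 0, beside 9.04% of all genes. At an unadjusted p under 0.05, 61 were lower, beside 22.7% of all genes, and 1 was higher, beside 1786 of 11939 over all genes. Beside 24.9% of all genes, DESeq2 called 48 of these 85. Their median log2 fold change was -1.03, and the summed level of all 87 in the table was 40087, 132659 and 97203 CPM in MA-10 cells and between 36251 and 37700 CPM in STARKO1 cells. The mitochondrial mRNAs, with a median of -1.28 over the 13, thus stood beside nuclear groups with medians between -1.36 and -0.93 in the same libraries.

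**Figure D5:**
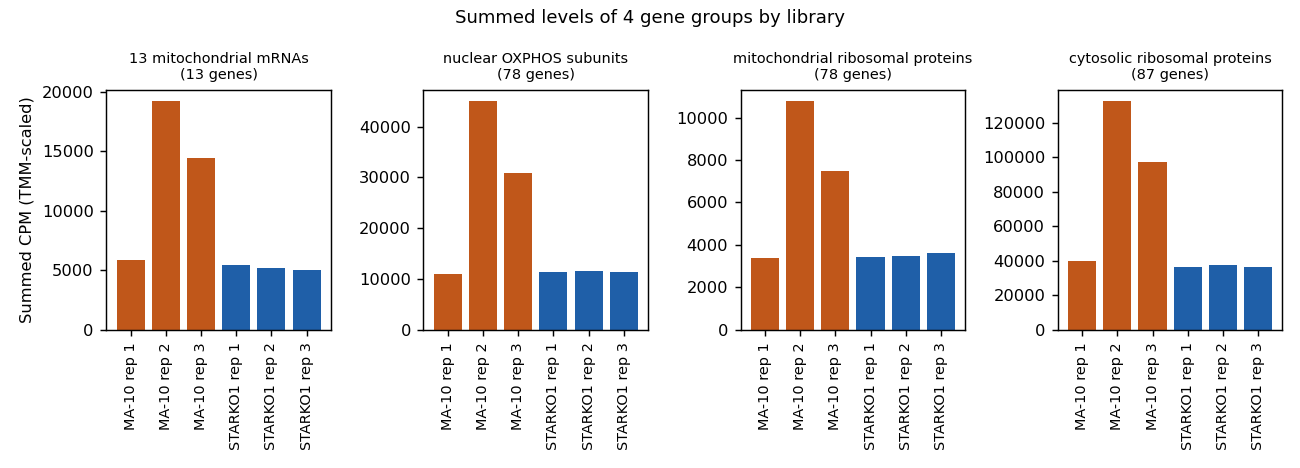
Summed level in CPM (y axis, from 0, a scale per panel) of the 13 mitochondrial mRNAs and the nuclear genes for oxidative phosphorylation subunits, mitochondrial ribosomal proteins and cytosolic ribosomal proteins, in each library (x axis, MA-10 and STARKO1 in different colors). In every panel MA-10 replicates 2 and 3 stand high and MA-10 replicate 1 stands near the 3 STARKO1 libraries.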

How the data were processed

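Total RNA of MA-10 and STARKO1 cells (3 libraries each) had been sequenced, and the authors deposited estimated counts per gene, not scaled for library size. The submitters' processing notes name STAR 2.6.1d, Partek and build mm10 without their roles. The counting program and its strand setting are not given in the sources used here. Starts and ends are those of the GENCODE M21 annotation of GRCm38 for all 17 mitochondrial genes.

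The estimated counts were rounded, filtered with filterByExpr, scaled by TMM and compared with the quasi-likelihood test of edgeR 4.0.16 in R 4.3.3, on the whole table of 14774 genes (11939 tested), with Benjamini-Hochberg adjustment over all genes tested and a threshold of 0.05. For the make-up, libraries were scaled by the summed counts of the 13 mitochondrial mRNAs. Shares of counts were compared with an exact permutation test in scipy 1.17.1. Nuclear copies were found with BLAST 2.17.0 among transcripts, at 99% identity or more over at least 90% of the copy. A level of 3 counts, at most 0.264 CPM, was taken as the floor. At the depths given, the spread between libraries and not counting limits precision for all but the tRNAs and other genes near this floor, such as Cox6a2. The common biological coefficient of variation was 0.291. On simulated counts of 11816 genes for this comparison, of which 194 were changed, the test recovered 91.7% of 4-fold and 31.6% of 2-fold changes, and 8.46% of its calls were false. The simulated libraries of a line shared the same mean and dispersion for each gene. None stood apart as MA-10 replicate 1 did, so these rates need not hold for the real libraries.

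All mitochondrial mRNAs and rRNAs are named with their values, together with both tRNAs, 10 preset nuclear genes, the called genes of the nuclear lists for mitochondrial gene expression, the called oxidative phosphorylation subunits and Star. The genes and lists were chosen with earlier results of these data known, so the lists are described by their counts and medians. Replicate numbers were not used as a block, since same-numbered libraries did not deviate together (correlations -0.02, 0.05 and 0.02). Alternatives were DESeq2 1.42.0, upper quartile scaling, scaling by total count, TMM without the mt- rows and the 50 most abundant genes, no filter, a filter of 10 counts in every library, a replicate block, leaving out each library, MA-10 replicate 1 alone against STARKO1 and, for the make-up, scaling by all mt- rows or by TMM over the 13 mRNAs. Adding the counts of nuclear copies was chosen after seeing the data.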

Additional observations from a re-analysis of the deposited data

How the results depend on the processing

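Against 1 mitochondrial gene called with TMM and edgeR, DESeq2 called 11, and 0 were called with at least 10 counts in every library (11 at an unadjusted p under 0.05) or with scaling by total count alone (7). The other scalings, the absence of a filter and the addition of nuclear copies each gave 1, always mt-Nd6. Over all genes, the 1079 calls became 3385 with DESeq2, 695 with the filter of 10 counts and 330 with scaling by total count, which split into 210 higher and 120 lower against 513 and 566 with TMM. The 6 calls among genes for mitochondrial gene expression became 18 with DESeq2 and 1 with scaling by total count. The 2 calls among nuclear oxidative phosphorylation subunits became 45 with DESeq2 and 1 each with the filter of 10 counts, scaling by total count and upper quartile scaling.

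With the replicate block, edgeR called 234 of all genes, 0 mitochondrial genes (7 at an unadjusted p under 0.05), 0 genes for mitochondrial gene expression and 1 nuclear subunit, and the adjusted p of mt-Nd6 was 0.107. The replicate numbers did not pair the libraries, since no same-numbered pair had a correlation of deviations above 0.05.

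Leaving out 1 library at a time gave 89 to 7990 calls over all genes, 0 to 15 mitochondrial genes, 0 to 11 under mitochondrial scaling, 0 to 47 genes for mitochondrial gene expression and 0 to 67 nuclear subunits, and in each case the highest count was the one without MA-10 replicate 1. The difference in the share of counts of the 13 mRNAs, -0.417 percentage points, kept its sign in every alternative run, and with 1 library left out it ranged from -0.593 without MA-10 replicate 1 to -0.305 without MA-10 replicate 2. Reversed values were those of mt-Tg (-0.23 without MA-10 replicate 1, in a range up to 1.37) and of Polg (-0.13 without MA-10 replicate 2 and -0.08 without MA-10 replicate 3, in a range up to 0.60), and those of Lrpprc (0.30) and Pnpt1 (0.32) with scaling by total count. With MA-10 replicate 1 alone against STARKO1, which gives no test, the sign also turned for mt-Atp6 (0.30), mt-Atp8 (0.34), mt-Cytb (0.54), mt-Nd1 (0.06), mt-Nd3 (0.48), Slirp (0.11), Lrpprc (0.22) and Pnpt1 (0.49), for Polg (-0.53), and for mt-Nd2 under mitochondrial scaling (0.02). None of these genes was called by edgeR with all libraries, and the cause of the reversals was not tested.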

Other observations

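Of 7 nuclear regulators of mitochondrial gene expression in the table, edgeR called 0, beside 9.04% of all genes. At an unadjusted p under 0.05, 1 was higher and 2 lower, beside 1786 of 11939 higher and 22.7% lower over all genes. DESeq2 called 3 of the 7, beside 24.9% of all genes. Pprc1, a coactivator of the PGC-1 family, had 28.6, 10.9 and 19.2 CPM in MA-10 cells and 42.4, 43.7 and 51.5 CPM in STARKO1 cells (log2 fold change 1.22, edgeR adjusted p = 0.0623). Gabpa, a transcription factor of many nuclear genes for mitochondria, had 114, 315 and 272 CPM in MA-10 cells and 90.5, 93.8 and 87.0 CPM in STARKO1 cells (-1.37, adjusted p = 0.0604). Both genes were chosen after their values were seen. In both the lines did not overlap, beside 42.5% of all genes, so this is no separate support. Of the 7, 3 had all STARKO1 libraries below all MA-10 libraries, 1 had them above, and 3 overlapped.

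Gm13340, a copy of mt-Co1 on chromosome 2 with 37 mismatches over 1545 bases, had between 3.04 and 12.3 estimated counts in any library, and mt-Co1 received at least 99.96% of the counts of that pair. Gm13341, a copy of mt-Co2 with 16 mismatches over 684 bases, had at most 5.14. Gm10221 on chromosome 5 had been listed as a copy but was not matched to any mitochondrial transcript by the sequence search. It had 71.1, 7.72 and 7.16 estimated counts in MA-10 cells and 119, 122 and 88.6 in STARKO1 cells (log2 fold change 1.61, edgeR adjusted p = 0.132), and the lines did not overlap in CPM.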
